A study of Mus musculus with 8 samples.

Results

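Pericyte and smooth muscle genes were examined in messenger RNA of whole mouse retina at postnatal day 5. The group holds the 10 genes Pdgfrb, Cspg4, Rgs5, Kcnj8, Abcc9, Acta2, Des, Anpep, Ndufa4l2 and Vtn. They were chosen by name, all 10 were found among the 16109 genes of the count table, and all 10 passed the expression filter, as did 15850 genes in all. The 8 libraries came from C57BL/6 retinas, 4 labelled C3 KO, for a knockout of complement component C3, and 4 labelled WT, for wild type. The hyaloid vessels of the embryonic eye had been removed from the retinas in both groups. How the C3 allele was made and how many animals stand behind a library are not stated in the labels, and p-values therefore measure the spread between these libraries.

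Pericytes are contractile cells wrapped around capillaries within the basement membrane, and vascular smooth muscle cells form rings around arterioles. Both are called mural cells. In the newborn mouse retina, sprouting endothelial cells secrete PDGF-B, and pericytes that carry its receptor, encoded by Pdgfrb, follow the sprouts as the superficial vessel layer spreads from the optic nerve head. Loss of this signal leaves retinal vessels without pericytes and leads to leaking, dilated vessels.

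Total counts ran from 17621087 to 19493979 reads in the libraries labelled C3 KO and from 16503564 to 19608824 reads in those labelled WT. C3 itself went against the labels, with 1419 to 1718 reads in the libraries labelled C3 KO and 33 to 55 reads in the libraries labelled WT. The C3 counts put the labels in doubt, so all directions given are those of the labels. Y-linked genes were at a mean of 74.8 to 88.2 CPM (read counts divided by the scaled library size) under the C3 KO label and at 0.448, 5.05, 75.8 and 3.71 CPM in WT replicates 1 to 4. Pigment epithelium genes summed to 279 to 308 CPM under the C3 KO label and 101 to 156 CPM under the WT label, with 7 of 10 called higher. Fibroblast and sclera genes summed to 17.6 to 25.7 CPM under the C3 KO label and 12.3 to 14.1 CPM under the WT label, with 4 of 8 called higher. Sex, carried tissue and genotype cannot be told apart in these 8 libraries where they move together.

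Of the 10 mural genes, 2 fell in the libraries labelled C3 KO and none rose, over a background in which 14.3% of all tested genes were called, 5.98% of the tested genes being lower and 8.33% higher. The genes that fell were Vtn, which encodes the adhesive plasma and matrix protein vitronectin, and Ndufa4l2, which encodes a mitochondrial protein induced in low oxygen. The other 8, among them the receptor gene Pdgfrb and the abundant pericyte gene Rgs5, did not pass the test (edgeR quasi-likelihood, Benjamini-Hochberg adjusted p below 0.05 over all genes tested). The 10 log2 fold changes, libraries labelled C3 KO over libraries labelled WT, ran from −0.44 to 0.30 with 5 positive and 5 negative. Their median was −0.017, and that of all tested genes was 0.0044. In whole tissue, fewer cells of a type and less RNA per cell cannot be told apart. Of the 2 calls, both were lost on leaving out C3 KO replicate 1, C3 KO replicate 4 or WT replicate 2, and 1 was lost without C3 KO replicate 2, C3 KO replicate 3, WT replicate 1 or WT replicate 3.

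**Figure D1:**
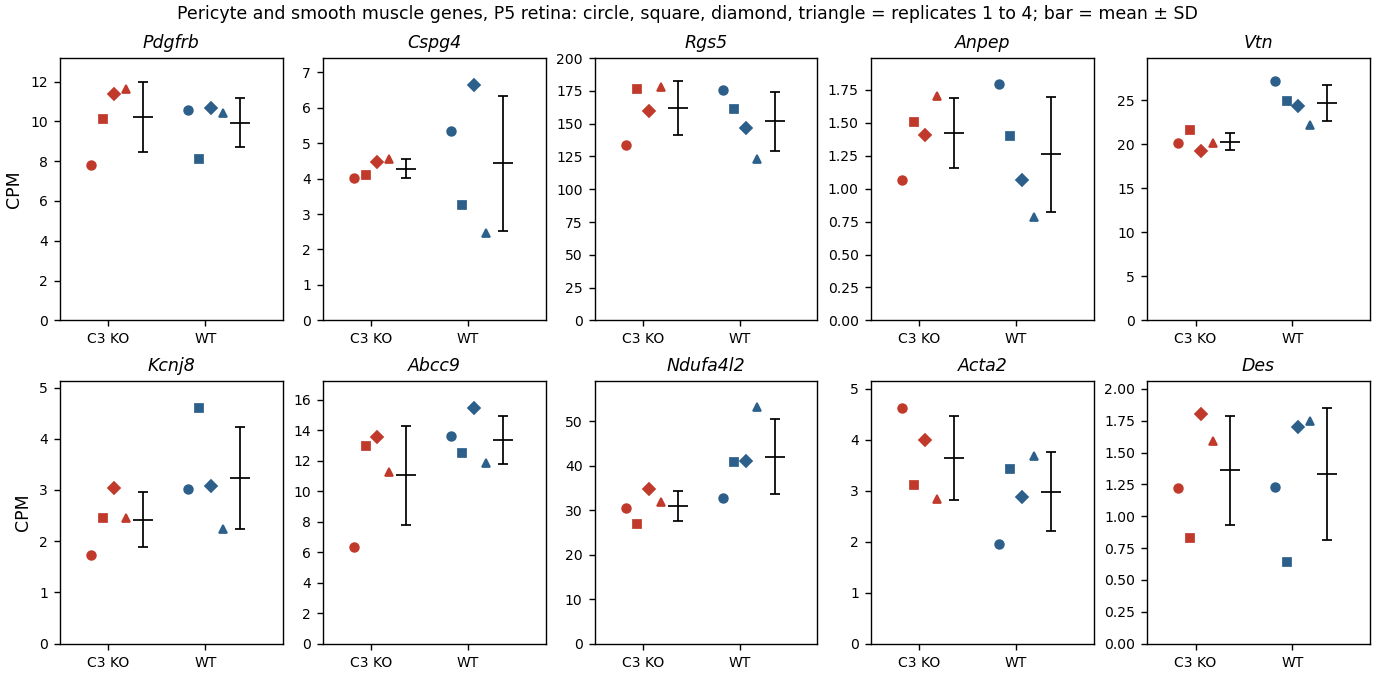
Level in CPM of each of the 10 genes in every library (linear axes starting at 0), labelled C3 KO in red on the left and labelled WT in blue on the right, with the mean ± SD (n = 4) beside the points. Vtn is the 1 gene whose groups do not overlap, with a highest value of 21.6 CPM under the C3 KO label and a lowest of 22.2 CPM under the WT label.

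Sequences are shown here for the genes on which the results turn. The first pair is the coding sequence of Ndufa4l2, on chromosome 10, and of its paralog Ndufa4, on chromosome 6, a subunit of cytochrome c oxidase that is made in most cells. They are shown because reads from shared stretches could be counted to the wrong copy. Capitals mark the longest run that the sequences share.
Ndufa4l2: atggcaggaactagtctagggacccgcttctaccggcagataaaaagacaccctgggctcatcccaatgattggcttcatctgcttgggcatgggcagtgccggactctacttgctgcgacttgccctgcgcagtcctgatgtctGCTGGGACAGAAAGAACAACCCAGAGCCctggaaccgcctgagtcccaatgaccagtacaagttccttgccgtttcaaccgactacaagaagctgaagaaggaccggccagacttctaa
Ndufa4: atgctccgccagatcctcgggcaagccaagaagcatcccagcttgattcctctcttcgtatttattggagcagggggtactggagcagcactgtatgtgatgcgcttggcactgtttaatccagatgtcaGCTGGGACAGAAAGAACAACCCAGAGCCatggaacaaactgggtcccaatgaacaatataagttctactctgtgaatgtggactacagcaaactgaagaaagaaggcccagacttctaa
The coding sequences are 264 and 249 bases long in the GENCODE M21 transcripts and agree at 168 of 245 aligned bases, or 68.6%. The longest shared run is 28 bases, so only a short window is common to both genes.

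The next sequences are the 250 bases before the RefSeq start of Vtn, the called gene with a promoter entry, and of Acta2, the smooth muscle actin gene (build GRCm38.p6, which is not the build of the counts). RefSeq promoter entries were matched for 8 of the 10 genes. In Vtn, on the plus strand at chr11:78498870-78499119, capitals mark GCGTG, a core of the element that hypoxia-inducible factors bind. In Acta2, on the minus strand at chr19:34255374-34255623, capitals mark CArG boxes, the element of serum response factor, searched with up to 1 mismatch.
Vtn: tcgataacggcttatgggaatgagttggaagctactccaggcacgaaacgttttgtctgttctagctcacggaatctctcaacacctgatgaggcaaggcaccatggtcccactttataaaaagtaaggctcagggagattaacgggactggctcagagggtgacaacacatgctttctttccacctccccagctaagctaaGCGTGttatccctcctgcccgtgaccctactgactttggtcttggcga
Acta2: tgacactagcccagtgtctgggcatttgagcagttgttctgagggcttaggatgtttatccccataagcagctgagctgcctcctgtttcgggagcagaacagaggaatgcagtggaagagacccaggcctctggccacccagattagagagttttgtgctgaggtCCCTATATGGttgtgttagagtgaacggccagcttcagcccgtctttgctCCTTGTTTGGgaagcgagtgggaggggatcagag
On either strand, GCGTG was found in 3 of the 8 windows, those of Vtn, Anpep and Kcnj8, and in 28.2% of all 32851 RefSeq windows of this length. The other core, ACGTG, was found in 0 of the 8 windows and in 16.6% of all windows. A CArG box with up to 1 mismatch was found in 3 of the 8, those of Acta2, Cspg4 and Kcnj8, and in 18.6% of all windows, while an exact one was in 0 of the 8 and in 1.47% of all. Acta2 held 2 matches, 84 to 75 and 34 to 25 bases before the start, and each matches on both strands because the motif is its own reverse complement. The 2 cores differ in their first base, so no match counts for both, and these matches describe the letters only.

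Among the mural genes, levels per kilobase of transcript (RPKM, from the authors' log2 values, mean of all 8 libraries) fell into 3 tiers. Ndufa4l2 at 38.1 RPKM and Rgs5 at 34.5 RPKM were highest, and their ranges over the libraries overlapped. Vtn followed at 11.1 RPKM, clear of the genes above and below it in every library. The other 7 genes lay below 2 RPKM. Acta2 stood at 1.92, Pdgfrb at 1.86, Abcc9 at 1.63 and Kcnj8 at 1.34 RPKM, followed by Cspg4 at 0.555, Des at 0.388 and Anpep at 0.374 RPKM. Each of these overlapped its neighbour in the order, so the order within this lower tier was not separated by the spread between libraries.

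Pdgfrb encodes the receptor tyrosine kinase through which PDGF-B recruits pericytes. It stood at 7.79, 10.1, 11.4 and 11.6 CPM under the C3 KO label, against 10.6, 8.09, 10.7 and 10.4 CPM under the WT label. One library of each label was low and the groups overlapped. The log2 fold change was 0.037 ± 0.14 (SE, edgeR adjusted p = 0.891). Cspg4 encodes the NG2 proteoglycan of the pericyte surface, which is also a marker of glial precursors. It stood at 4.02, 4.11, 4.46 and 4.55 CPM under the C3 KO label and at 5.33, 3.26, 6.64 and 2.47 CPM under the WT label. The libraries labelled WT lay on both sides of those labelled C3 KO, with SDs of 0.256 CPM under the C3 KO label and 1.91 CPM under the WT label (n = 4 each). The log2 fold change was −0.061 ± 0.23 (SE, edgeR adjusted p = 0.896).

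Rgs5 encodes a regulator that speeds the inactivation of G proteins, and it is among the most abundant pericyte transcripts. It stood at 134, 176, 160 and 178 CPM under the C3 KO label, against 176, 161, 146 and 123 CPM under the WT label. The groups overlapped over most of their range. The log2 fold change was 0.093 ± 0.13 (SE, edgeR adjusted p = 0.698). Anpep encodes aminopeptidase N, the CD13 antigen of pericytes, an enzyme that trims peptides at the cell surface. At 21 to 30 reads under the C3 KO label and 13 to 35 reads under the WT label it was, with Des, the least covered of the 10. Its mean was 1.42 ± 0.266 CPM under the C3 KO label and 1.26 ± 0.435 CPM under the WT label (SD, n = 4 each), and it did not pass (edgeR adjusted p = 0.779).

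Vtn encodes vitronectin, a ligand of integrins that pericytes deposit in the vessel wall in the central nervous system and that also inhibits the terminal complement complex. It stood at 20.2, 21.6, 19.3 and 20.1 CPM under the C3 KO label, against 27.2, 25.0, 24.3 and 22.2 CPM under the WT label. The groups did not overlap, which was the case in the lower direction for 1 of the 10 genes and for 7.72% of all tested genes, while no member lay higher without overlap, against 9.65% of all tested genes and 17.4% in either direction. Vtn was 1.22-fold lower, with a log2 ratio of −0.28 ± 0.084 (SE, edgeR adjusted p = 0.0264), from 342 to 415 reads under the C3 KO label and 368 to 531 reads under the WT label. Leaving out C3 KO replicate 1, 3 or 4 ended the call, with edgeR adjusted p-values at 0.0534, 0.072 and 0.0623, and without WT replicate 1 or 2, at 0.0803 and 0.0507. With the Y-linked level as a covariate the log2 fold change was −0.21 (edgeR adjusted p = 0.397). Photoreceptor markers summed to 3832 to 4421 CPM under the C3 KO label and 4466 to 4861 CPM under the WT label. Of the 8 markers 2 were called lower, against 5.98% of all tested genes, with 5 negative and 3 positive log2 fold changes. Their mean log2 CPM relative to the WT mean overlapped, at −0.18 to 0.048 under the C3 KO label and −0.034 to 0.040 under the WT label. The part of photoreceptors in the Vtn result was not tested.

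Of 7 tested vitronectin receptors and partners, 2 were called lower and none higher, against 5.98% and 8.33% of all tested genes. The median log2 fold change of the 7 was −0.13. Itgb5 encodes the integrin beta chain that pairs with alpha V to bind vitronectin. It fell to 62.0 ± 0.247 CPM under the C3 KO label, against 75.2 ± 9.69 CPM under the WT label (SD, n = 4 each), a log2 fold change of −0.28 (edgeR adjusted p = 0.0113). Itgb8, another partner of alpha V, was at 60.6 ± 6.08 CPM under the C3 KO label and 69.8 ± 1.64 CPM under the WT label (SD, n = 4 each, edgeR adjusted p = 0.0378). With the Y-linked covariate Itgb5 had a log2 fold change of −0.27 with a larger SE, 0.11 with the covariate and 0.071 without it, and was not called (edgeR adjusted p = 0.181). The call of Itgb8 was lost without C3 KO replicate 3 or 4, at edgeR adjusted p-values of 0.0651 and 0.15, and without WT replicate 1, 2 or 4, at 0.0598, 0.0698 and 0.0631. It was also lost with the Y-linked covariate, at a log2 fold change of −0.16, and on both log2 RPKM scales. With the endothelial score as a covariate Itgb8 was not called (edgeR adjusted p = 0.0772). Itgav, the alpha V chain itself, at a log2 fold change of 0.17 (edgeR adjusted p = 0.113), and Itgb3, at 0.25 (edgeR adjusted p = 0.58), did not pass. Many retinal cells besides mural cells carry these integrins.

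Ndufa4l2 is a target of hypoxia-inducible factor and lowers mitochondrial oxygen use, and in the vessel wall it is enriched in pericytes. It stood at 30.5, 26.8, 34.8 and 31.8 CPM under the C3 KO label, against 32.8, 40.9, 41.1 and 53.3 CPM under the WT label. The groups overlapped through the library labelled WT replicate 1, the lowest of its label, and C3 KO replicate 3, the highest of its own. Ndufa4l2 was 1.35-fold lower, with a log2 ratio of −0.44 ± 0.13 (SE, edgeR adjusted p = 0.0361). The call was lost without C3 KO replicate 1, 2 or 4, at edgeR adjusted p-values of 0.0798, 0.0722 and 0.0753, and without WT replicate 2 or 3, at 0.0778 and 0.0578. It was also lost in limma on log2(RPKM + 1), at an adjusted p = 0.0533, and with the Y-linked level as a covariate, at an edgeR adjusted p = 0.109 and a log2 fold change of −0.56. Its paralog Ndufa4 averaged 243 ± 20.5 CPM under the C3 KO label and 245 ± 22.0 CPM under the WT label (SD, n = 4 each) and did not pass (edgeR adjusted p = 0.948).

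Cox4i2 encodes the isoform of cytochrome c oxidase subunit 4 that is made in low oxygen and, in the brain, marks pericytes. It stood at 14.0, 8.59, 11.1 and 11.9 CPM under the C3 KO label, against 14.9, 16.7, 17.9 and 15.6 CPM under the WT label. No library labelled C3 KO reached the lowest of those labelled WT. Cox4i2 was 1.43-fold lower, with a log2 ratio of −0.51 ± 0.12 (SE, edgeR adjusted p = 0.00673), a larger change than that of either called member. It kept its call whichever of the 8 libraries was left out (edgeR adjusted p 0.00241 to 0.0271) and under the 12 other settings tried. Cox4i1, the isoform of most tissues, averaged 439 ± 27.7 CPM under the C3 KO label and 418 ± 30.6 CPM under the WT label (SD, n = 4 each) and did not pass (edgeR adjusted p = 0.429).

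**Figure D2:**
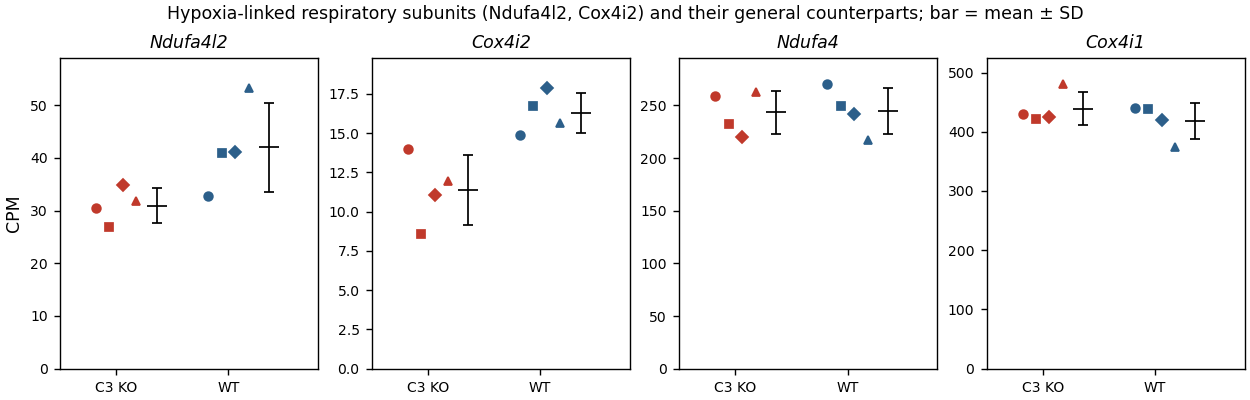
Level in CPM per library (linear axes from 0), labelled C3 KO on the left and labelled WT on the right, with mean ± SD (n = 4), of Ndufa4l2 and Cox4i2 and of Ndufa4 and Cox4i1. Cox4i2 lies at 8.59 to 14.0 CPM under the C3 KO label and 14.9 to 17.9 CPM under the WT label without overlap, while the Ndufa4 and Cox4i1 groups overlap.

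Among 16 genes of the hypoxia response, 7 were called lower and none higher in the libraries labelled C3 KO, with a median log2 fold change of −0.16. Of the 16 log2 fold changes 12 were negative and 4 positive. The positive ones included Epas1 at 0.35 (edgeR adjusted p = 0.19) and Vegfa at 0.083 (edgeR adjusted p = 0.312). Hif1a, the oxygen-regulated subunit of the factor, fell to 548 ± 20.4 CPM, against 665 ± 24.7 CPM under the WT label (SD, n = 4 each, edgeR adjusted p = 0.000379). The glucose transporter gene Slc2a1 stood at 180 ± 10.3 CPM under the C3 KO label and 215 ± 11.1 CPM under the WT label (SD, n = 4 each, edgeR adjusted p = 0.00188). The oxygen-sensing hydroxylase gene Egln3 was 1.81-fold lower (edgeR adjusted p = 0.00619). These transcripts are made by many retinal cells, and their levels do not show in which cells they moved. Red blood cell genes had 5 of 5 tested called lower, with sums of 18.1 to 23.2 CPM under the C3 KO label and 28.5 to 51.2 CPM under the WT label. Progenitor and Mueller glia genes had 2 of 6 called lower and all 6 log2 fold changes negative, with sums of 733 to 809.8 CPM under the C3 KO label and 830.04 to 1073 CPM under the WT label. The part of either in the hypoxia and Ndufa4l2 results was not tested. With the Y-linked level as a covariate 2 of the 16 were called lower. The call of Egln3 was lost (edgeR adjusted p = 0.123) at a nearly equal log2 fold change, −0.85 with the covariate and −0.86 without it, while its SE was 0.30 with it and 0.20 without it. With the endothelial score 4 of the 16 were called lower, and without C3 KO replicate 4 or WT replicate 4 it was also 4. By limma-voom, with non-robust dispersion, with the replicate block and without WT replicate 1, 1 of the 16 was called higher.

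Kcnj8 and Abcc9 encode the pore and the regulatory subunit of the vascular ATP-sensitive potassium channel, which relaxes mural cells when energy is short. They are neighbours on chromosome 6, with 0 protein-coding genes between them in RefSeq. Kcnj8 stood at 1.73, 2.45, 3.05 and 2.44 CPM under the C3 KO label, against 3.02, 4.60, 3.08 and 2.23 CPM under the WT label. Abcc9 stood at 6.37, 13.0, 13.5 and 11.3 CPM under the C3 KO label and at 13.6, 12.5, 15.5 and 11.8 CPM under the WT label. The groups overlapped for both genes, and the library labelled C3 KO replicate 1 was the lowest of all 8 in each. The log2 fold changes were −0.42 ± 0.24 for Kcnj8 (SE, edgeR adjusted p = 0.252) and −0.28 ± 0.18 for Abcc9 (SE, edgeR adjusted p = 0.342), and without C3 KO replicate 1 that of Abcc9 was −0.09. The paralogous subunits are those of neurons and endocrine cells. Abcc8 rose to 22.8 ± 2.98 CPM under the C3 KO label, against 13.8 ± 1.22 CPM under the WT label (SD, n = 4 each), with a log2 ratio of 0.73 ± 0.10 (SE, edgeR adjusted p = 5.48e-05), and Kcnj11 had a log2 fold change of 0.32 (edgeR adjusted p = 0.107). The difference between the paralogs was not tested.

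Acta2 encodes smooth muscle actin, the thin filament of contractile mural cells. It stood at 4.63, 3.12, 4.01 and 2.84 CPM under the C3 KO label, against 1.95, 3.43, 2.87 and 3.68 CPM under the WT label. The groups overlapped, and the log2 fold change of 0.30 ± 0.22 (SE) did not pass (edgeR adjusted p = 0.395). Acta2 shares 85.4% of its coding bases with skeletal actin Acta1 and 84.4% with Actg2, with shared runs of up to 29 bases, and the labels do not say how common reads were counted, so its value is uncertain to that extent. Acta1 averaged 2.73 ± 0.684 CPM under the C3 KO label and 2.05 ± 0.146 CPM under the WT label (SD, n = 4 each), with an edgeR adjusted p = 0.255.

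Des encodes desmin, the muscle intermediate filament protein that pericytes also make. It stood at 1.22, 0.833, 1.81 and 1.59 CPM under the C3 KO label, against 1.23, 0.640, 1.70 and 1.75 CPM under the WT label. The groups covered nearly the same range, from 16 to 32 reads under the C3 KO label and 11 to 32 reads under the WT label. The log2 fold change was 0.026 ± 0.33 (SE, edgeR adjusted p = 0.969), so a change of the size seen in Vtn lies within the error of this gene. Skeletal muscle genes, whose tissue also makes desmin, had 1 of 4 tested called higher. They summed to 12.6 to 14.6 CPM under the C3 KO label and 8.79 to 10.9 CPM under the WT label. Of the 10 listed, 6 were not in the count table, among them Ckm, Myog and Myod1. Of 4 filament partners 3 were called higher, against 8.33% of all tested genes. Nes, the filament protein of progenitors and young pericytes, was at 268 ± 18.4 CPM under the C3 KO label and 214 ± 21.7 CPM under the WT label (SD, n = 4 each, edgeR adjusted p = 0.00225). The linker gene Plec was at a log2 fold change of 0.29 (edgeR adjusted p = 0.00158), a call lost in limma on log2(RPKM + 1) at an adjusted p = 0.0538. Synm was also called higher, at a log2 fold change of 0.23 (edgeR adjusted p = 0.0205). Its call was lost without C3 KO replicate 3 or 4 or WT replicate 2 or 4. It was also lost on both log2 RPKM scales and with the Y-linked level or the endothelial score as a covariate. Vim, the filament of most immature retinal cells, did not pass (edgeR adjusted p = 0.853).

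Beyond the members, 14 of 17 other listed pericyte genes were tested. Tbx18 and Slc38a11 were not in the count table, and Kcne4 did not pass the expression filter. Of the 14, 1 rose and 2 fell in the libraries labelled C3 KO, while 8.33% of all tested genes were called higher and 5.98% lower. Negative log2 fold changes numbered 11 of the 14, against 7776 of all 15850 tested genes, and the median was −0.18. Cox4i2, described above, and Heyl fell. Heyl, a transcriptional target of Notch3 in mural cells, stood at 15.2, 14.8, 18.4 and 13.2 CPM under the C3 KO label and at 19.4, 16.7, 21.1 and 24.1 CPM under the WT label, with 1 library of each label overlapping (log2 fold change −0.40 ± 0.11 (SE), edgeR adjusted p = 0.0215). Ebf1, a transcription factor of pericytes and of other retinal cells, rose to 68.2 ± 5.54 CPM, against 58.5 ± 5.84 CPM under the WT label (SD, n = 4 each, edgeR adjusted p = 0.0425). The call of Heyl was lost without C3 KO replicate 1 or 4, at edgeR adjusted p-values of 0.0523 and 0.0788, and without WT replicate 3 or 4, at 0.0539 and 0.0755. With 1 library left out, that of Ebf1 held only without C3 KO replicate 1 or WT replicate 1, and without C3 KO replicate 2, 3 or 4 or WT replicate 2, 3 or 4 the edgeR adjusted p-values were 0.0761, 0.15, 0.128, 0.168, 0.0574 and 0.103. The Heyl and Ebf1 calls were also lost on both log2 RPKM scales and with the Y-linked covariate, where the log2 fold changes were −0.45 for Heyl and 0.25 for Ebf1, no smaller than without it. Ebf1 was not called by limma-voom (adjusted p = 0.0533) or with non-robust dispersion (edgeR adjusted p = 0.0511). With the endothelial score as a covariate it was not called either (edgeR adjusted p = 0.115). Notch3, the receptor that keeps mural cells mature, averaged 12.1 ± 1.06 CPM under the C3 KO label and 12.2 ± 1.11 CPM under the WT label (SD, n = 4 each, edgeR adjusted p = 0.982), and the adhesion gene Mcam had a log2 fold change of −0.17 (edgeR adjusted p = 0.142).

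Contractile smooth muscle genes did not pass in either direction, with 0 of 8 called, against 14.3% of all tested genes. Of their log2 fold changes 4 were positive and 4 negative, with a median of 0.001. At an unadjusted p below 0.05 the edgeR test held 1 of the 8, Synpo2, a binding protein of actin filaments, at a log2 ratio of −0.30 ± 0.11 (SE, edgeR adjusted p = 0.0767). DESeq2 and limma-voom also called 0 of the 8, while Synpo2 was called with the replicate block (edgeR adjusted p = 0.0305) and without C3 KO replicate 2 or WT replicate 4, at 0.0046 and 0.0469. Myh11, the smooth muscle myosin, averaged 1.20 ± 0.432 CPM under the C3 KO label and 0.968 ± 0.529 CPM under the WT label (SD, n = 4 each, edgeR adjusted p = 0.634). The 5 others on the list, Cnn1, Lmod1, Actg2, Pln and Mustn1, were not in the count table.

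**Figure D3:**
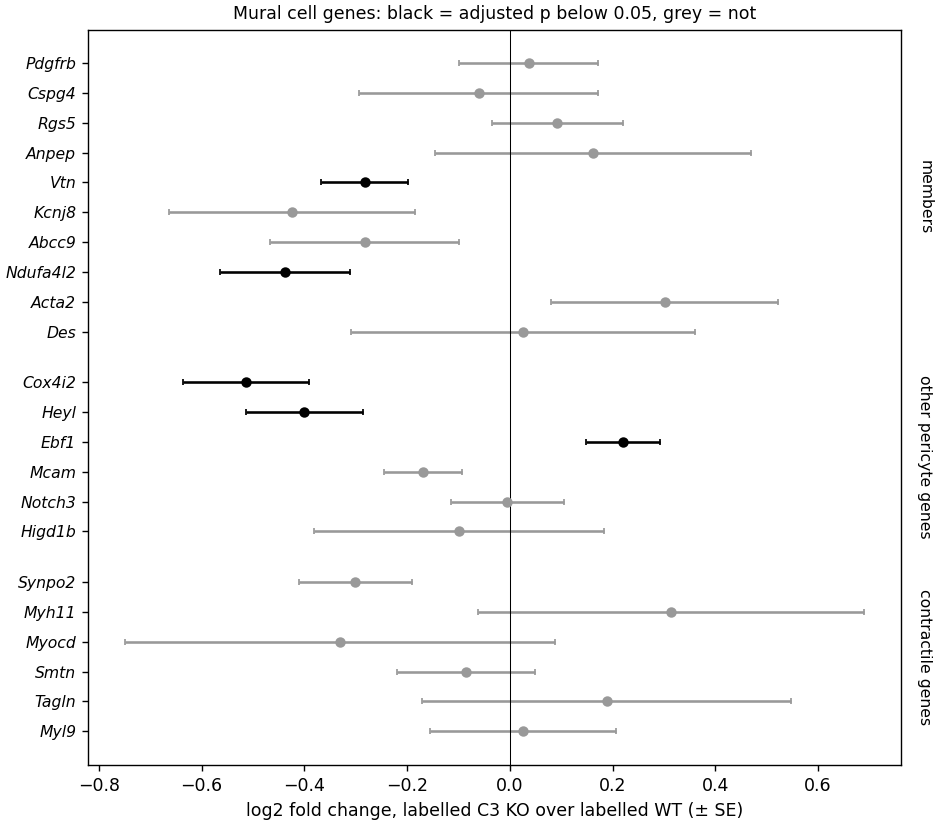
Log2 fold change ± SE, libraries labelled C3 KO over libraries labelled WT, of the 10 members, 6 other pericyte genes and 6 contractile genes, with called genes in black and the others in grey. Vtn, Ndufa4l2, Cox4i2 and Heyl lie below 0 and Ebf1 above it, and the contractile genes spread to both sides.

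Of 15 genes listed around pericyte recruitment, 2 were called higher and 1 lower, against 8.33% and 5.98% of all tested genes. The median log2 fold change of the 15 was −0.058. The list also takes in related genes of other cells, such as Pdgfra, 1 of the 2 called higher. The ligand gene Pdgfb stood at 8.81, 9.01, 11.8 and 9.89 CPM under the C3 KO label, against 10.1, 9.31, 11.8 and 10.3 CPM under the WT label. Ligand and receptor thus both overlapped between the labels (Pdgfb edgeR adjusted p = 0.756). Pdgfra, the related receptor of retinal astrocytes and fibroblasts, rose to 214 ± 17.0 CPM, against 161 ± 17.0 CPM under the WT label (SD, n = 4 each, edgeR adjusted p = 0.000977). Tek, the endothelial receptor of the pericyte ligand Angpt1, was at 13.4 ± 2.37 CPM under the C3 KO label and 9.46 ± 1.36 CPM under the WT label (SD, n = 4 each, edgeR adjusted p = 0.0151), a call lost without C3 KO replicate 3 or 4 or WT replicate 4, at edgeR adjusted p-values of 0.0661, 0.0558 and 0.0536. That call was also lost on both log2 RPKM scales and with the Y-linked covariate, at a log2 fold change of 0.39 with it and 0.50 without it. Angpt1 had a log2 fold change of −0.39 (edgeR adjusted p = 0.0606) and was called lower by DESeq2 (adjusted p = 0.0498), with the replicate block (edgeR adjusted p = 0.0381) and without C3 KO replicate 1 or WT replicate 2, at 0.0155 and 0.0478. Cdh2, the N-cadherin of endothelium to pericyte contacts and of neurons, was at 201 ± 9.54 CPM under the C3 KO label and 229 ± 20.3 CPM under the WT label (SD, n = 4 each, edgeR adjusted p = 0.0281), a call lost without C3 KO replicate 1 or 4 or WT replicate 3 or 4, at edgeR adjusted p-values of 0.0615, 0.105, 0.0665 and 0.103. On both log2 RPKM scales and with the Y-linked covariate Cdh2 was not called either, at a log2 fold change of −0.23 with the covariate and −0.19 without it. The Cdh2 call was also lost with the endothelial score as a covariate (edgeR adjusted p = 0.078).

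Endothelial genes had 0 of 12 called, against 14.3% of all tested genes. Only Emcn of the 12 lay at an unadjusted p below 0.05 (log2 fold change 0.53, edgeR adjusted p = 0.0851). DESeq2 and limma-voom also called 0 of the 12, and 1 was called with the replicate block and without WT replicate 1. Of the 12 log2 fold changes 8 were positive and 4 negative, with a median of 0.063. The summed level of the endothelial genes was 342 to 409 CPM under the C3 KO label and 374 to 431 CPM under the WT label. Most of it came from Kdr, the VEGF receptor gene, which averaged 232 CPM under the C3 KO label and 260 CPM under the WT label (edgeR adjusted p = 0.312). Kdr was highest in WT replicate 4, at 311 CPM, where Pecam1 was lowest, at 16.4 CPM, so the sum mainly follows Kdr. The endothelial score, which counts each gene equally, was −0.082 to 0.19 under the C3 KO label and −0.17 to 0.17 under the WT label. The summed level of the 10 mural genes was 211 to 266 CPM under the C3 KO label and 232 to 274 CPM under the WT label. The mean log2 CPM of the mural genes less that of the endothelial genes, each gene taken relative to its WT mean, was −0.18, −0.17, −0.10 and −0.12 in the libraries labelled C3 KO, against −0.13, −0.05, 0.12 and 0.06 in those labelled WT. The groups overlapped through WT replicate 1 alone, and this difference was not tested. With the endothelial score as a covariate, a setting chosen after seeing the data, Vtn kept its call and Ndufa4l2 did not, at a log2 fold change of −0.35 (edgeR adjusted p = 0.0606).

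Libraries of 1 label also differed among themselves in the mural genes. In the library labelled C3 KO replicate 1, 1 of the 10 genes lay above the mean of its label, and in C3 KO replicates 3 and 4 it was 8 of the 10. Under the WT label the counts were 6, 5, 4 and 4 of the 10. Abcc9, Kcnj8, Pdgfrb, Anpep and Rgs5 were all lowest in C3 KO replicate 1 among the libraries of that label, while Acta2 was highest there. Under the WT label Ndufa4l2 did not follow the surface and channel genes, being highest in replicate 4, where Rgs5, Anpep, Kcnj8 and Abcc9 were lowest. Under the C3 KO label Ndufa4l2 was highest in replicate 3, at 34.8 CPM, as were Kcnj8, at 3.05 CPM, and Abcc9, at 13.5 CPM.

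**Figure D4:**
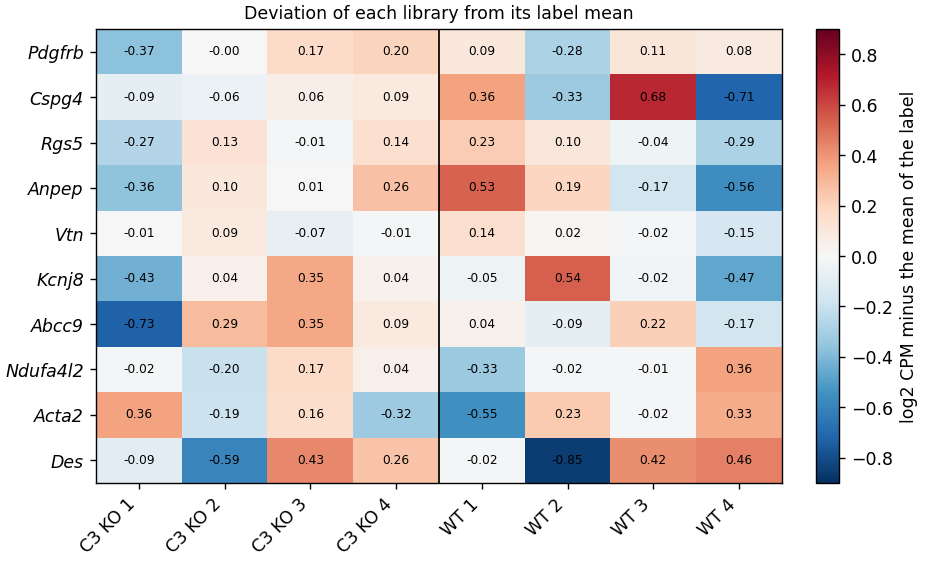
Log2 CPM of each of the 10 genes in each library minus the mean of its label, labelled C3 KO on the left and labelled WT on the right of the line, with red above and blue below the mean. Most genes are low in C3 KO replicate 1, down to −0.73 for Abcc9. WT replicate 4 is low in Cspg4, Anpep and Kcnj8 but high in Des, Ndufa4l2 and Acta2.

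Genes outside the group were ranked by how closely their deviations from the label mean followed the average deviation of Pdgfrb, Cspg4, Rgs5, Kcnj8, Abcc9, Anpep and Ndufa4l2 over the 8 libraries, which share depth and dissection. Of 15009 genes averaging 1 CPM or more, the closest were Kcnf1, AU021092, Pcdh12, a protocadherin of endothelium, Tek and Fmod, with Pearson's r from 0.955 to 0.975. Such values over 8 libraries and this many genes describe likeness only. Within the 7 averaged genes, Ndufa4l2 went against the average, at an r of −0.383. The rest of the 7 had an r from 0.626 for Pdgfrb to 0.864 for Abcc9, each gene being itself part of the average. The other pericyte genes did not follow this average as a group. Of 12 that were ranked, 5 had a positive and 7 a negative r, from −0.384 for Mcam to 0.851 for Higd1b, with Cox4i2 at −0.369 and Heyl at −0.212.

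**Figure D5:**
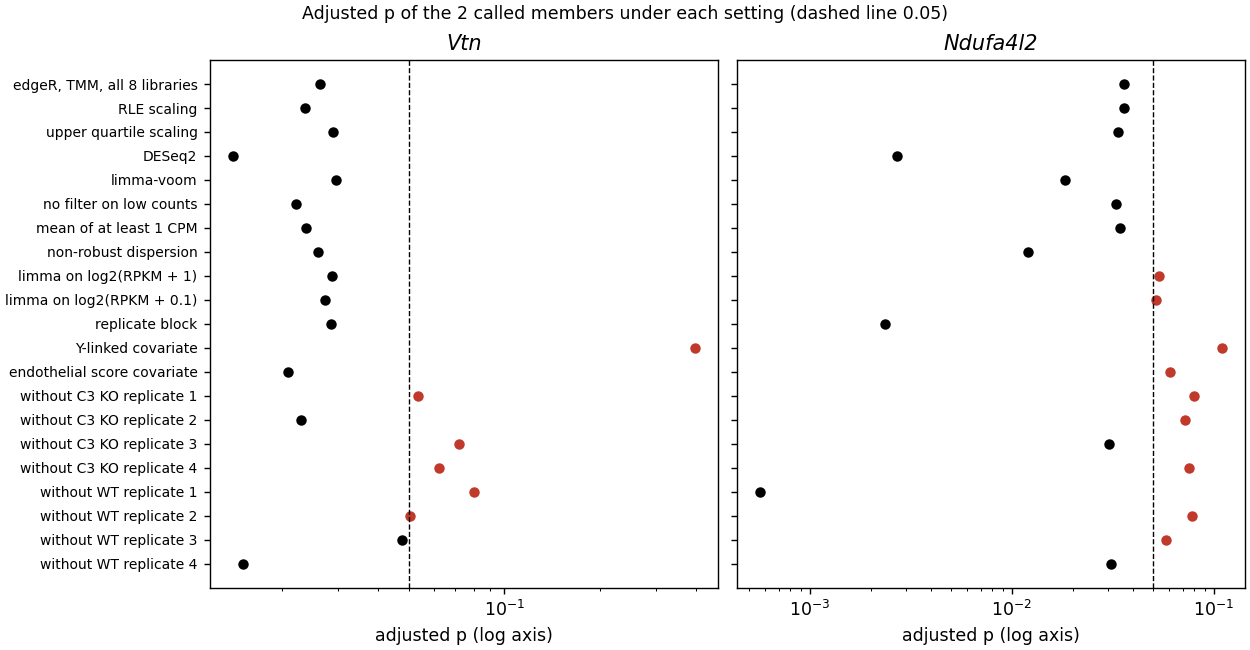
Adjusted p (log axis) of Vtn and Ndufa4l2 under each setting of the test and without each library in turn, with values below 0.05 in black and others in red, and the dashed line at 0.05. Both genes cross the line when single libraries are left out, with adjusted p-values from 0.0151 to 0.0803 for Vtn and from 0.000565 to 0.0798 for Ndufa4l2.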

How the data were processed

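The authors deposited raw read counts for 16109 genes in 8 libraries, as whole numbers, and separately log2 RPKM (counts scaled to library size and transcript length). Every gene of the count table reached at least 15 reads in some library, so genes with fewer reads were not in it. Per the submitters' processing notes, STAR and HTSeq were used, with builds mm9 and NCBIM37. The library kit was directional, per the labels, but versions, the strand setting of the counting and the handling of shared reads are not stated there. The log2 RPKM values differed by at most 0.0133 from log2 of the count plus 2 reads (scaled to library size), after a constant per gene and library.

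Genes passing edgeR's filterByExpr (15850 of 16109) were scaled by TMM and tested with edgeR 4.0.16 (robust quasi-likelihood) in R 4.3.3. The 4 libraries labelled C3 KO were compared with the 4 labelled WT, without covariates. Each SE is the absolute log2 change over the root of F. A call is a Benjamini-Hochberg adjusted p below 0.05. The procedure was run on simulated counts in which libraries of a label differed by depth and random noise alone. It was not tested there against sex or carried-tissue differences. Alternatives used limma 3.58.1 and DESeq2 1.42.0. A list score is the mean over genes of log2 CPM (prior count 2) minus the WT mean. No pair of libraries of 1 label agreed within sampling noise (chi-square per degree of freedom at least 3.72). A count of 3 reads corresponds to 0.153 to 0.17 CPM under the C3 KO label and 0.154 to 0.181 CPM under the WT label, for counting error only.

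The members and lists were chosen with earlier results of these data known. Named genes are the members, C3, genes tied to their roles, up to 4 genes of each list with the smallest p, and the 5 nearest by likeness. The genes tied to roles are Ndufa4, Cox4i1, Kcnj11, Abcc8, Notch3 and Pdgfb, of which Cox4i1 was not in the first plan. Epas1 and Vegfa are outside the named genes and are given as examples of positive changes in the hypoxia list. Higd1b was added after its value was seen. Promoter sequences are credited to RefSeq and coding sequences to GENCODE M21.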

Additional observations from a re-analysis of the deposited data

Results flagged for a closer look

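Each value below lay far from the other 3 libraries of its label by Dixon's ratio (critical value 0.829). Among 106 groups of 4 libraries checked for the named genes, 9 met it, and chance gives about 1 in 20. Pdgfrb was low in the library labelled WT replicate 2, at 8.09 CPM against 10.4 to 10.7 CPM. The endothelial and other pericyte genes included Pcdh12, at 3.36 CPM in C3 KO replicate 1 against 5.99 to 6.31 CPM, and Mcam, at 36.8 CPM in WT replicate 1 against 46.8 to 47.9 CPM. Of the integrin and hypoxia genes, Itgb8 was at 67.4 CPM in WT replicate 3 against 70.5 to 70.9 CPM, and Egln3 at 7.85 CPM in WT replicate 4 against 4.46 to 4.95 CPM. Cox4i1 was high in C3 KO replicate 4, at 480 CPM against 422 to 429 CPM, as was Acta1, at 3.75 CPM against 2.34 to 2.45 CPM. Kcnf1, at 12.01 CPM against 13.7 to 13.9 CPM, and Fmod, at 0.422 CPM against 0.851 to 0.923 CPM, were low in WT replicate 4. Of 18 groups checked for list scores, 2 met it. The skeletal muscle score was −0.18 in WT replicate 2 against 0.05 to 0.07, and the red blood cell score was −1.29 in C3 KO replicate 4 against −1.01 to −0.99.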

How the results depend on the processing

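The test called 2269 genes. Separate totals were 1509 and 1502 by limma on log2(RPKM + 1) and log2(RPKM + 0.1), 530 with the Y-linked level as covariate and 1305 to 2543 without 1 library (1305 without C3 KO replicate 4). Mural genes called lower numbered 1 and 1 on the 2 RPKM scales, 0 with the Y-linked covariate, 1 with the endothelial score and 0 to 2 without 1 library, against 2, and none was called higher under any setting tried. The cause was not tested. Over all tested genes, same-numbered libraries' deviations from their label means correlated at −0.0597 to 0.0885. No pairing by replicate number was seen at that level, but such values cannot exclude a pairing that moves few genes. With the replicate number as a block 2400 genes and 2 mural genes were called, and Synpo2, Angpt1 and Emcn gained a call. Signs turned for genes that did not pass. With the endothelial score Pdgfrb was −0.038, Rgs5 −0.0028, Anpep −0.0048 and Pcdh12 −0.098. With the Y-linked covariate Des was −0.21, Ndufa4 0.0605, Notch3 0.15 and Vim −0.028. Cspg4 was 0.022 by limma-voom, 0.023 on log2(RPKM + 0.1) and 0.0053 with the block. Without 1 library, log2 fold changes ran from −0.058 to 0.15 for Pdgfrb, −0.26 to 0.19 for Cspg4, −0.00031 to 0.17 for Rgs5, −0.21 to 0.20 for Des and −0.0075 to 0.39 for Anpep. They ran from −0.068 to 0.043 for Ndufa4, −0.057 to 0.049 for Notch3, −0.20 to 0.0057 for Smtn, −0.029 to 0.072 for Vim, −0.23 to 0.21 for AU021092 and −0.049 to 0.28 for Pcdh12. Of 1059 gene values under 20 settings, 930 kept direction and side of the threshold, 81 lost a call, 13 gained one and 35 changed sign. Counts of 11 to 35 reads per library limit Des and Anpep.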

Other observations

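Ratios between mural genes within a library do not depend on the library scaling, although they are not corrected for gene length and so can be compared only between libraries. Abcc9 over Kcnj8, the subunits of 1 channel, was 3.68, 5.30, 4.44 and 4.60 in the libraries labelled C3 KO, against 4.51, 2.72, 5.02 and 5.30 in those labelled WT, with overlapping groups. Pdgfrb over the endothelial gene Pecam1 was 0.382, 0.436, 0.445 and 0.507 under the C3 KO label and 0.464, 0.394, 0.511 and 0.636 under the WT label. Rgs5 over Pecam1 was 6.56, 7.61, 6.25 and 7.74 under the C3 KO label and 7.73, 7.84, 7.01 and 7.52 under the WT label, so the groups overlapped for both. Ndufa4l2 over Rgs5 was 0.228, 0.152, 0.218 and 0.179 under the C3 KO label and 0.186, 0.254, 0.281 and 0.432 under the WT label. These groups overlapped through WT replicate 1 alone.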
